A study of Drosophila melanogaster with 10 samples.

Results

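Whole adult Drosophila melanogaster were sampled hour by hour. At hours 2 and 9 of the course the transcripts of some immune peptides, those of DptB and Mtk among them, stood high. The arrays of hours 2 and 9 were set against the other 8 arrays, those of hours 1, 3, 5, 6, 7, 10, 11 and 12, to describe what the 2 hours shared and what 1 of them showed without the other. These are 2 arrays of 10 in all. All 10 arrays came from 1 treatment group, NY (no yeast): from early in the third instar the larvae, and later the adults, got a diet that lacked yeast. Hourly killing started when the adults were 4 days past emergence and went on for 12 hours. Each hour has 1 array of total RNA from whole animals on an Affymetrix Drosophila array, and the labels give neither genotype nor sex nor the number of flies pooled. Hours 4 and 8 gave too little RNA, per the labels. Flies returned to yeast and samples from before the course were not analysed here.

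The hours were picked from these same values, because DptB and Mtk, which encode a diptericin and metchnikowin, were highest there. A test of the 2 hours against the others would therefore test that choice, and 1 array per hour leaves no replicate error, so no p-value is given. Each probe set, the array's unit of measurement for a transcript, is described by its intensity at hour 2, at hour 9 and over the other 8 arrays, whose range stands for the spread between arrays. That range also holds any change over the course itself. A probe set was counted as outside where its value lay beyond all 8 other arrays and at least 1.5-fold (0.585 on the log2 scale) from their median. Both hours are compared with the same 8 arrays, so their differences are not independent of each other. An intensity can be set against the same probe set on another array, but not against a different probe set. In whole-animal RNA, more cells of a type and more RNA per cell cannot be told apart.

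Flies answer infection without antibodies. The fat body, which does the work of liver and fat tissue, and the blood cells secrete small antimicrobial peptides. A pair of pathways switches their genes on. The Imd pathway reads peptidoglycan typical of most Gram-negative bacteria and acts through the NF-kappaB factor Relish. The Toll pathway answers fungi and many Gram-positive bacteria through Dif and Dorsal. Diptericins and attacins are known as Imd outputs, Bomanins as Toll outputs, and metchnikowin answers both.

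Array-wide values of hours 2 and 9 were mostly within those of the other hours. Median intensities were 113 and 112.2, against 111.1 to 120 on the other 8 arrays, and the median log2 difference over all 13966 non-control probe sets was 0 at both hours. The ratios of 3' to 5' control probe sets for actin, GAPDH and eIF-4a, a sign of RNA quality, also lay within the range of the other arrays. For actin they were 2.15 and 2.08, against 1.8 to 2.56. The hybridisation controls did not. These are 9 probe sets for bacterial and phage transcripts, BioB, BioC, BioDn and CreX, that are added in known amounts before hybridisation. All 9 were lower at hours 2 and 9 than on every other array. BioB-5 read 239.1 and 239.8 units, against 287.7 to 574.5, and CreX-5 read 4653 and 4964 units, against 5572 to 7655. Averaged over the 9, they stood at -0.74 and -0.64 on the log2 scale relative to the median of the other 8 arrays, whose own values ran from -0.45 to 0.32. The part of this in the results below was not tested.

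**Figure D1:**
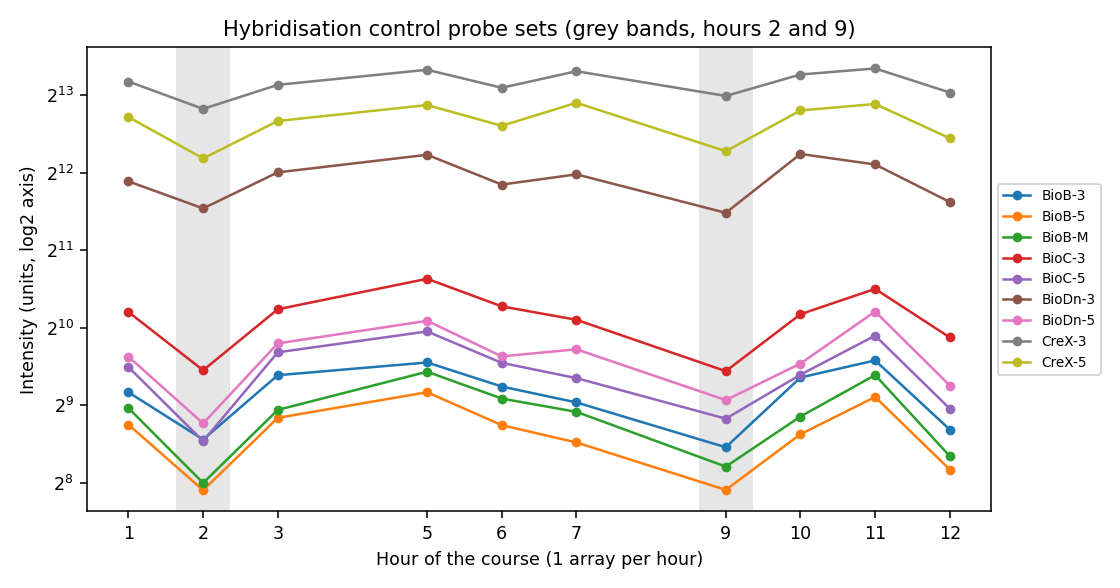
Intensity of the 9 hybridisation control probe sets (y axis, intensity units on a log2 axis) at each hour (x axis, 1 array per hour), with 1 line per probe set and grey bands at hours 2 and 9. Each line has its 2 lowest points inside the grey bands.

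Few probe sets were outside at both hours. Of 13966 probe sets, 11 (0.0788%) were outside and higher at both hours, and 2 (0.0143%) were outside and lower. These shares come from the contrast that chose the hours and are a description. Without the fold limit, 222 probe sets (1.59%) lay above all 8 other arrays at both hours and 398 (2.85%) lay below them. Of the 11 higher probe sets, 4 had a named gene: DptB, Mtk, PGRP-SB1 and Srg2. The other 7 carry no gene name in the platform annotation used here and are called by their identifiers.

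DptB, an antibacterial peptide gene of the diptericin family, read 1041 units at hour 2 and 1531 at hour 9. The other 8 arrays had a lowest value of 178.1, a median of 188.7 and a highest value of 521.1. Hours 2 and 9 thus stood 5.52-fold and 8.12-fold above that median, and the SD of the 8 log2 values was 0.59. Neither hour overlapped the other arrays, but the 8 were not flat: hour 6 held the 521.1, hour 5 had 366.1 and hour 3 had 270.1, while hours 1, 7, 10, 11 and 12 lay between 178.1 and 194.

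Mtk, which encodes a peptide active against fungi and Gram-positive bacteria, read 544.4 units at hour 2 and 1420 at hour 9, against 217.3 to 476.3 with a median of 256 on the other arrays. The differences were 1.09 and 2.47 on the log2 scale (SD of the other 8 arrays, 0.42). Hour 2 lay just clear of hour 6, at 476.3, and of hour 3, at 389.8, whereas hour 9 lay far from both. These are the genes that marked the hours.

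PGRP-SB1, a secreted amidase that cleaves peptidoglycan, had 267.8 and 292.9 units, against 149.3 to 212.1 with a median of 167.9. Its differences of 0.67 and 0.80 made it the member nearest to the fold limit. Vha16-5, a proton pump subunit gene, was the nearest higher gene left out, with 324.1 and 351.5 units, against 223.1 to 303.2.

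Srg2, a gene named for its regulation by the antiviral adaptor STING, had a course of its own. It had 349.4 and 311.3 units at hours 2 and 9, but the other arrays ran from 103.6 to 309.7, with a median of 172.8. Hours 3, 6 and 7, with 309.7, 306.9 and 302.6 units, came close to hour 9, so its place among the 11 rests on a gap of a few units. It was the 1 probe set of the 11 that read lower at hour 9 than at hour 2. Its relative Srg1, named after its values were seen, was outside at hour 2 alone, with 193.8 and 139.3 units, against 108.3 to 161.8.

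Most of the shared signal lay in probe sets without a gene name here, and these are given, after their values were seen, because they make up 7 of the 11. Probe set 143443_at read 688.1 and 700.3 units, against a median of 48.2, and was the most even of the 11 between the 2 hours, with a ratio of hour 9 to hour 2 of 1.02. Hour 6 also stood high in it, at 427 units, and hour 5 had 161.5. Probe set 143609_at read 586 units at hour 2 and 2134 at hour 9, against 57.1 to 213.3, and the ratio of hour 9 to hour 2, 3.64, was the widest of the 11. Probe set 147220_s_at had 611.4 and 777.3 units, against 53.4 to 103.8. The differences of 143443_at were 3.59 and 3.61 on the log2 scale, and they are bounded by the floor of 57.2 units set under dim values, since the median of the 8 lay beneath it.

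The remaining 4 unnamed probe sets had smaller differences, from 0.72 to 1.34 at hour 2 and from 1.43 to 2.67 at hour 9. In 141374_at the other 8 arrays were tight, with 299.4 and 448.8 units, against 129.7 to 162.5. Those of 147150_at were wider, with 269.4 and 384.3 units, against 130.9 to 197.2, and hour 6 held the 197.2. Of these 4, 143096_f_at and 143097_f_at carry the suffix that marks a probe set matching several related sequences, so those 2 may not be independent readings.

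Of the other arrays, that of hour 6 came nearest to this pattern. It was the highest of the other 8 arrays in 8 of the 11 probe sets, and its median difference over the 11 was 0.76 on the log2 scale. At hour 5 that median was 0.28, and on the 6 arrays of hours 1, 3, 7, 10, 11 and 12 it lay between -0.09 and 0.06. Hour 9 exceeded hour 2 in 10 of the 11.

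**Figure D2:**
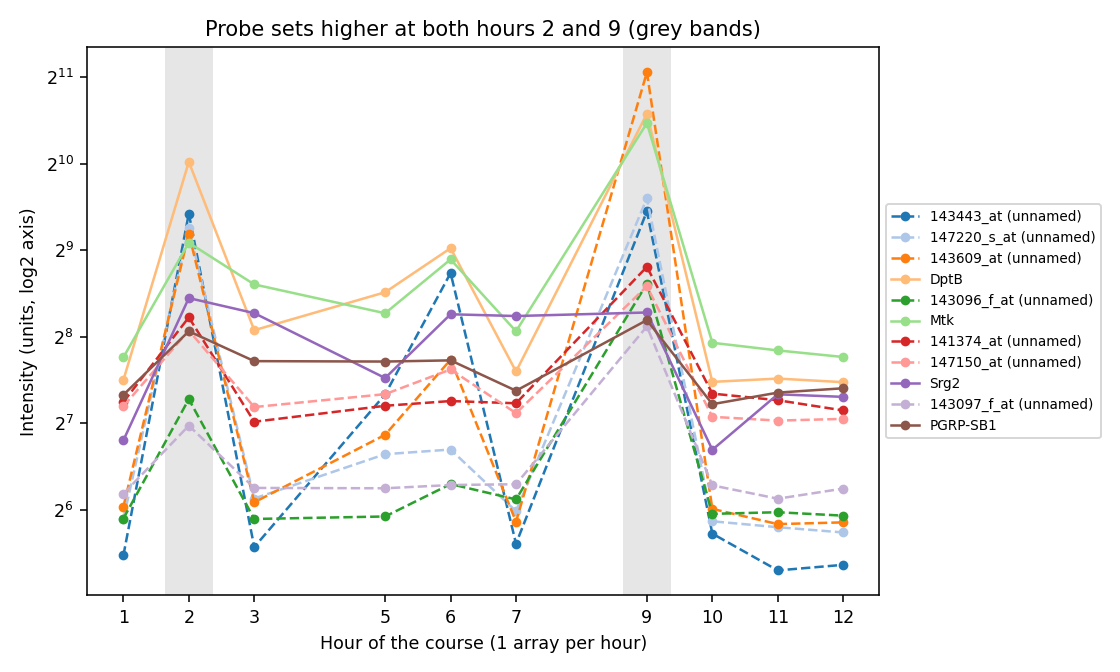
Intensity of the 11 probe sets that were higher at both hours (y axis, intensity units on a log2 axis) at each hour (x axis, 1 array per hour). Solid lines have a gene name, dashed lines have none, and grey bands mark hours 2 and 9. Hour 6 forms a lower peak in most lines, with 521.1 units for DptB and 427 for 143443_at.

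On the lower side, Mkrn1, which encodes a makorin RNA-binding ubiquitin ligase, had 74.8 and 64.7 units, against 88.8 to 141.1. One probe set of Vha16-1, a proton pump subunit gene, had 42.2 and 56.3 units, against 72.1 to 125. Both its values were under the floor, so its difference of -0.65 is a bound set by that floor. A brighter probe set of Vha16-1 had 3365 and 2247 units, against 2766 to 4161, and was low at hour 9 alone. The nearest lower gene left out was mAcon1, the mitochondrial aconitase gene of the citric acid cycle, with 1231 and 1185 units, against 1384 to 1902. Without the array of hour 3 the count of shared lower probe sets was 4.

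What 1 hour showed without the other was larger in number. Hour 2 alone had 13 probe sets outside and higher (0.0931%) and 32 outside and lower (0.229%). Hour 9 alone had 44 higher (0.315%) and 24 lower (0.172%). "Alone" here means that the other hour of the pair lay within the range of the 8 arrays. One probe set (0.00716%) was outside in opposite directions. No test of hour 9 against hour 2 was possible with 1 array each. Whatever the other hour of the pair did, hour 2 had 27 probe sets outside and higher (0.193%) and 35 outside and lower (0.251%), and hour 9 had 62 (0.444%) and 31 (0.222%).

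**Figure D3:**
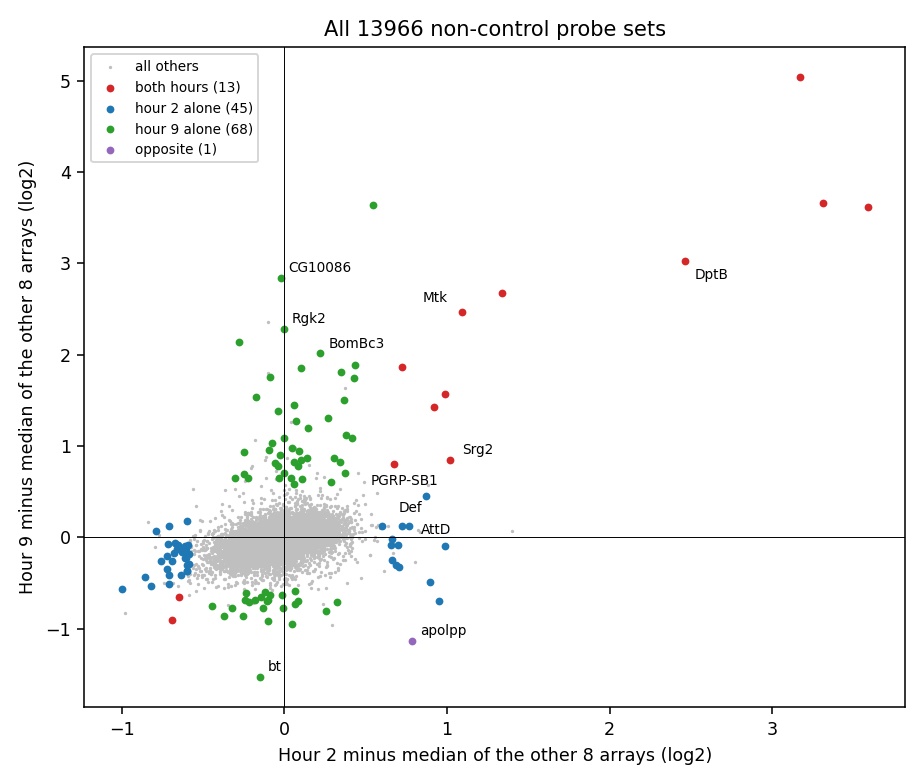
Each point is 1 of 13966 non-control probe sets, placed by its hour 2 value (x axis) and its hour 9 value (y axis), each as log2 minus the median of the same 8 other arrays. Colours mark the 13 probe sets outside at both hours in 1 direction, 45 at hour 2 alone, 68 at hour 9 alone and 1 in opposite directions. The largest shared differences lie at the upper right, and hour 9 alone reaches higher than hour 2 alone.

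The antimicrobial peptide list, which holds the genes that marked the hours, shows both kinds of pattern. Of 19 genes listed, 8 had a probe set named here. At hour 2, 5 of the 8 lay above all other arrays and 2 below, where 7.1% and 10.2% of all probe sets did so. At hour 9 it was 3 above and 1 below, where 5.74% and 8.99% of all did. The list median was 0.50 at hour 2 and 0.13 at hour 9, against 0 over all probe sets at both. The list mean was 0.64 and 0.73, and on the other 8 arrays it ran from -0.14 at hour 10 to 0.45 at hour 6. Without DptB and Mtk, which marked the hours, the mean of the other 6 genes was 0.27 at hour 2 and 0.057 at hour 9, against -0.17 to 0.21 on the other arrays. Of these 6, 3 lay above and 2 below the others at hour 2, and 1 above and 1 below at hour 9.

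Def, the insect defensin gene, had 1144 units at hour 2 and 757.4 at hour 9, against 518.8 to 824.5 on the other arrays, with a median of 692.4. It was clear of the other arrays at hour 2, by 0.73 on the log2 scale, and within them at hour 9. AttD, of the attacin family, had 97.3 units at hour 2 and 62.5 at hour 9, against 40.5 to 80.9, with the highest of the others again at hour 6. The other 7 of the 8 lay under the floor, so its difference of 0.77 is bounded by that floor. CecB, a cecropin gene, had 69.1 units at hour 2, 54 at hour 9 and at most 56.4 elsewhere.

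Drs, the drosomycin gene and a classical readout of Toll, was bright on every array. It had 3778 units at hour 2, next to the lowest of the others at 3784, and 5036 at hour 9, above the highest of 4366. Its difference at hour 9, 0.38, lay under the fold limit but was wide for this gene, whose log2 SD over the 8 arrays was 0.07. Drsl5, a drosomycin-like gene, had 256 and 212.1 units, against 165.8 to 343.2. Anp, the andropin gene of the male genital tract, had 107 and 115.6 units, against 116.9 to 190.2.

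Bomanins are a family of short secreted peptides that act downstream of Toll, and some of them stood high at hour 9 and not at hour 2. With related host defence genes, 9 of 22 listed genes had a probe set named here. At hour 2, 0 of the 9 lay above all other arrays, where 7.1% of all probe sets did, and at hour 9 it was 6 of the 9, where 5.74% did. The hours were picked for high immune peptide transcripts, and the list was chosen with earlier results known. These counts are therefore a description and not a test. The list median was 0.22 at hour 2 and 1.20 at hour 9. Summed over the 9 genes the intensity was 2280 units at hour 2 and 4937 at hour 9, against 1411 to 3094 on the other arrays, with the highest of these at hour 6.

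Bbd, known as bombardier and needed for the short Bomanins to circulate, had 166.7 units at hour 2 and 891.7 at hour 9, against 153 to 290.5 with a median of 202.3. Of the 5 genes of the list that were outside at hour 9 alone by the fold limit, the other 4 were Bomanins of 2 groups. BomBc3, with 189 and 655.7 units against 124.2 to 326.7, and BomBc2, with 330.8 and 727.8 against 202.2 to 397, belong to the bicipital group. BomS2, with 193.2 and 527.5 units against 54.9 to 259.9, and BomS5, with 422.3 and 874.1 against 292.8 to 592.9, belong to the short group.

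The rest of the family stood closer to the other arrays. BomS6 had 394.5 units at hour 2 and 454.5 at hour 9, against 202.7 to 437.4, so hour 9 was above the others by a small margin. BomT2 had 421.2 and 563.3 units, against 262.6 to 575.2. BomT3 had 77.6 and 140.8, against 51.2 to 163, and BomS4 had 84.4 and 101.7, against 56.9 to 107.2. In these 3 genes hour 6 was higher than hour 9. BomBc2 and BomS2 are adjacent genes in the Release 6 gene table, and BomS5 is separated from BomS2 by 2 genes.

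Tsf1, which encodes the iron-binding blood protein transferrin, had 192.7 units at hour 2 and 415.1 at hour 9, against 170.5 to 225.6 with a median of 203, a difference of 1.03 at hour 9 (SD of the other 8 arrays, 0.13). The other 5 genes of the iron list were not outside: Fer2LCH, a ferritin chain gene, had 3703 and 3455 units, against 3028 to 3759, and Mvl, a metal ion transporter gene, had 64.8 and 78.2, against 66.1 to 83.1. Further secreted-protein genes at hour 9 alone, named after their values were seen, were Spn88Eb, a serpin protease inhibitor gene, with 208.3 and 291.3 units against 150.8 to 220.4, and IM33, an immune-induced peptide gene, with 1050 and 1307 against 590.7 to 1206. IM33 is the immediate neighbour of CG16713, likewise named after its values were seen, which had 121.7 and 201.6 units, against 78.1 to 145.7.

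Genes that sense and relay infection form the next lists. Of 7 peptidoglycan recognition genes, 1 lay above all other arrays at hour 2 and 2 at hour 9, with 0 below at either. Over all probe sets the shares above were 7.1% and 5.74%. PGRP-SC2, named after its values were seen, had 406.2 and 526.5 units, against 378.2 to 465.2, and did not reach the fold limit. PGRP-SB1 was the 1 gene of the 7 outside by the fold limit. It was outside and higher at both hours, where 0.0788% of all probe sets were. PGRP-LF lay under the floor on every array. PGRP-LB, an amidase that limits Imd signalling, had 315.7 and 417.4 units, against 275.5 to 477.2, and PGRP-SB2 had 67.3 and 62.6, against 53.4 to 70.7. Of 13 Imd pathway genes, 1 lay above and 4 below all other arrays at hour 2, where 7.1% and 10.2% of all probe sets did, and 0 above and 1 below at hour 9, where 5.74% and 8.99% did. None of the 13 passed the fold limit at either hour, and at hour 2 the fold limit was passed by 0.193% (higher) and 0.251% (lower) of all. Of the 13, 11 rose above the floor on at least 1 array. imd and Fadd did not, so their differences were fixed at 0. The medians of the 13 were -0.11 at hour 2 and -0.01 at hour 9. Rel, the gene of Relish and named after its values were seen, had 269.5 and 268.7 units, against 186 to 312.5.

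Among the Imd genes with the largest mean difference, casp, a negative regulator known as caspar, had 111.2 and 134.3 units, against 114.4 to 153.3. IKKbeta, a kinase of the complex that activates Relish, had 76.6 and 72 units, against 57 to 73.7, and ben, a ubiquitin-conjugating enzyme gene, had 338.1 and 348.4, against 340.3 to 433.9. Of those below at hour 2, named after their values were seen, Uev1A, the gene of a ubiquitin-conjugating enzyme variant, had 134.7 and 166.9 units, against 156.1 to 178.4, and Dredd, the caspase gene of the pathway, had 187.3 and 188.7, against 197.1 to 210.3. Of 18 Toll pathway genes, 1 lay above and 2 below all other arrays at hour 2, and 0 above and 1 below at hour 9, with medians of -0.01 and 0. Dif lay under the floor on every array, and spz and dl lay under it at both hours, so their differences were set by the floor. The protease gene SPE, which processes the Toll ligand, had 288.5 and 309.7 units, against 245.1 to 309.8. Myd88, an adaptor gene, had 98.7 and 95.7 units, against 94.3 to 112.3, and Tl, the receptor gene, was dim, with 57.9 and 52.8 against 42.4 to 73.2.

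**Figure D4:**
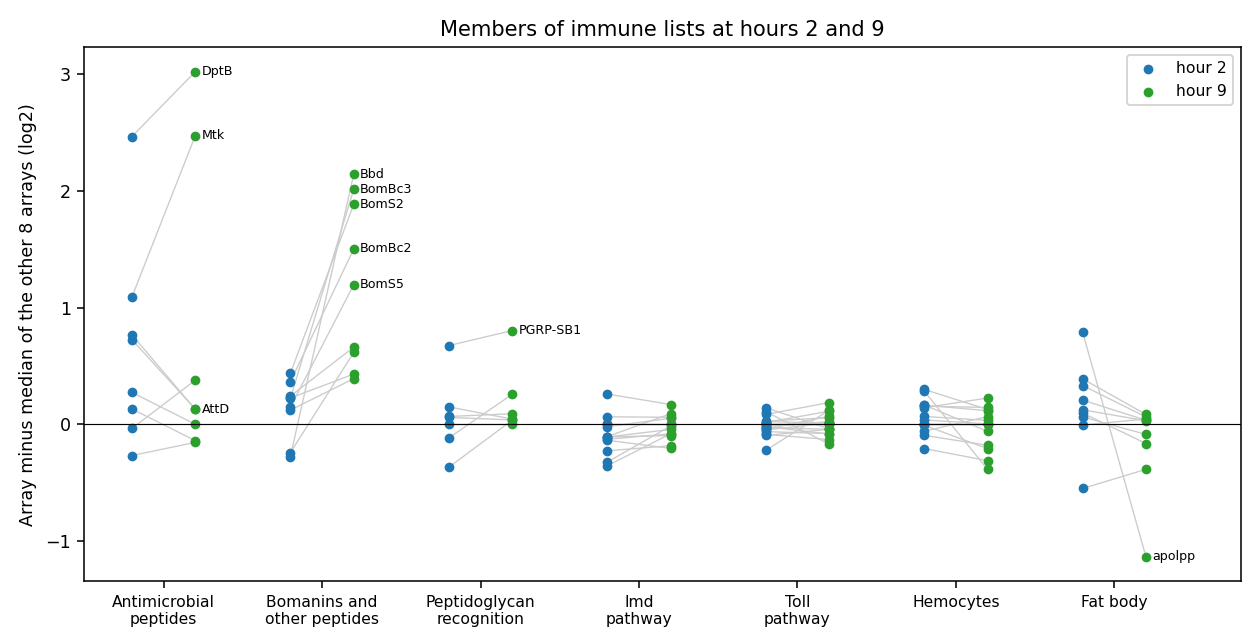
Each dot is 1 gene of a list, as its log2 value minus the median of the other 8 arrays (y axis), at hour 2 (blue, left) and hour 9 (green, right), with a grey line joining the same gene. Antimicrobial peptide genes are spread at both hours. The list of Bomanins and other host defence peptides has a median of 1.20 at hour 9, with members spread on both sides of it. Pathway genes lie closer to 0, with medians from -0.11 to 0. Genes under the floor on every array are drawn at 0.

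Markers of the tissues that make these peptides were read against the same shares of all probe sets, 7.1% above and 10.2% below at hour 2, and 5.74% above and 8.99% below at hour 9. Of 15 hemocyte (blood cell) markers, 2 lay above and 0 below the other arrays at hour 2, and 1 above and 1 below at hour 9. These counts are near those shares. Their summed intensity was 2613 units at hour 2 and 2282 at hour 9, against 2157 to 2912. The phagocyte receptor genes NimC1 and eater were dim on every array, with 28 and 25.9 units at hour 2 and 29.2 and 32.1 at hour 9, all under the floor. Of 9 fat body genes, 2 lay above and 1 below at hour 2, and 1 above and 3 below at hour 9, and the sum was 2335 units at hour 2 and 1553 at hour 9, against 1731 to 2160, so it lay above the others at hour 2 and below them at hour 9. Without apolpp the sum was 1469 and 1325 units, against 1267 to 1548, within the others at both hours. The part of tissue content in the immune differences was not tested.

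The widest difference in the fat body list was that of 1 gene. apolpp, which encodes the main lipid carrier protein of the blood, was the probe set outside in opposite directions: it had 866.9 units at hour 2 and 228.4 at hour 9, against 399.7 to 710.6 with a median of 502.1. The differences were 0.79 and -1.14 (SD of the other 8 arrays, 0.29). A second probe set of apolpp had 357.8 and 183.4 units, against 163.7 to 548.7, and lay within the other arrays at both hours. Lsd-2, a lipid droplet coat gene, had 179.9 and 201.6 units, against 208.8 to 307.3, and lay below the others at both hours within the fold limit. Lsp2, a storage protein gene, had 287.5 and 232.7 units, against 178.5 to 230.6, and Npc2e had 98.7 and 81.9, against 69.2 to 105.4.

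Besides Def and AttD, genes higher at hour 2 alone had a course of their own. CG17108 had 2425 units at hour 2 and 773 at hour 9, against 732 to 1962, and its neighbour CG7300 had 416 and 203.3, against 200 to 391. Both stood higher in hours 1 to 6 than in hours 7 to 12, with hour 2 as the highest array. Cpr49Ae, a cuticle protein gene, had 347.7 and 132.7 units, against 131.8 to 259.5. Peritrophin-15a, a chitin-binding protein gene, had 1205 and 703.3 units, against 511.1 to 979. CG13996 had 126.2 units at hour 2 and 59.5 at hour 9, against 55.5 to 80.2. CG13947 had 1469 and 1095 units, against 635.2 to 1449, and the 1449 was at hour 3. Its second probe set had 2007 and 797.7 units, against 437 to 3404, and lay within the others. With hour 10 left out, 7 probe sets were counted in place of 13.

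Lower at hour 2 alone were genes of varied function, and hour 3 was often the next array. In 22 of the 32 probe sets hour 3 was the lowest of the other 8, and the median difference of hour 3 over the 32 was -0.47, against -0.65 at hour 2. Act88F, the actin gene of flight muscle, had 535.2 units at hour 2 and 655.5 at hour 9, against 583.4 to 1174. The photoreceptor channel gene trpl had 373.1 and 678 units, against 377.5 to 924.6. Ogdh, a citric acid cycle enzyme gene, had 504.7 and 581.4 units, against 557.1 to 944.4. Snx17, a sorting nexin gene, had 373.5 and 498.9, against 431.4 to 847.5. The noncoding RNA genes lncRNA:CR42862, with 625.3 and 843.2 units against 670.3 to 1610, and lncRNA:CR31781, with 346.6 and 428.1 against 399.1 to 717.3, were also in this set. The same holds for osi, with 131.9 and 205.9 units against 152.7 to 273.2, and for Hcf, a chromatin cofactor gene, with 210.7 and 376.7 against 297.1 to 623.8. Without the array of hour 3 the count was 40.

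Hour 9 alone also held genes outside the immune lists. Rgk2, a small GTPase gene, had 95.1 units at hour 2 and 462.8 at hour 9, and the other 8 arrays were tight at 79.8 to 102.1, so its difference of 2.28 came from a single array. Gas8, a gene of the regulatory complex of motile cilia, had 79.6 and 208.2 units, against 67.1 to 85.3. CG10086 had 173.2 and 1257 units, against 141.8 to 916.5, and the 916.5 was at hour 3. A probe set of Rab10, a vesicle traffic GTPase gene, had 1187 and 3998 units, against 890.5 to 2332, again with hour 3 next, but a second probe set of Rab10 had 123.7 and 145.4, against 155.4 to 183.3. Hour 3 was the highest of the other 8 arrays in 14 of the 44. The largest difference at hour 9 alone belonged to an unnamed probe set, 147431_at, with 120.6 and 1026 units, against 41 to 147.

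In the set lower at hour 9 alone, 1 of the 17 listed muscle genes, Mlp84B, and 1 of the 9 nerve genes, elav, passed the fold limit by the probe set read for the list. Of all probe sets, 0.172% were in this set. Hour 3 was the lowest of the other 8 arrays in 16 of the 24. A probe set of bt, the muscle gene projectin, had 185.3 units at hour 2 and 71.2 at hour 9, against 102.1 to 281.7, while its brighter probe set had 277.9 and 268.8, against 202.1 to 464.6. Mlp84B, a muscle LIM protein gene, had 2072 and 991 units, against 1608 to 2167. The neuronal RNA-binding gene elav had 126.8 and 83.6 units, against 97.8 to 172.1. The kinase anchor gene rg, known as rugose, had 315.6 and 158.4, against 220.8 to 378.2, while its second probe set had 317.6 and 310.2, against 297.6 to 827.8. The receptor kinase gene Alk had 134.6 and 79.3, against 109.5 to 166.2. pAbp, the poly(A)-binding protein gene, had 1672 and 1219 units, against 1365 to 2244. The growth inhibitor gene scyl had 168.5 and 120.2, against 126.9 to 260.6, and CG14892 had 129.9 and 73.6, against 116.5 to 184.2.

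**Figure D5:**
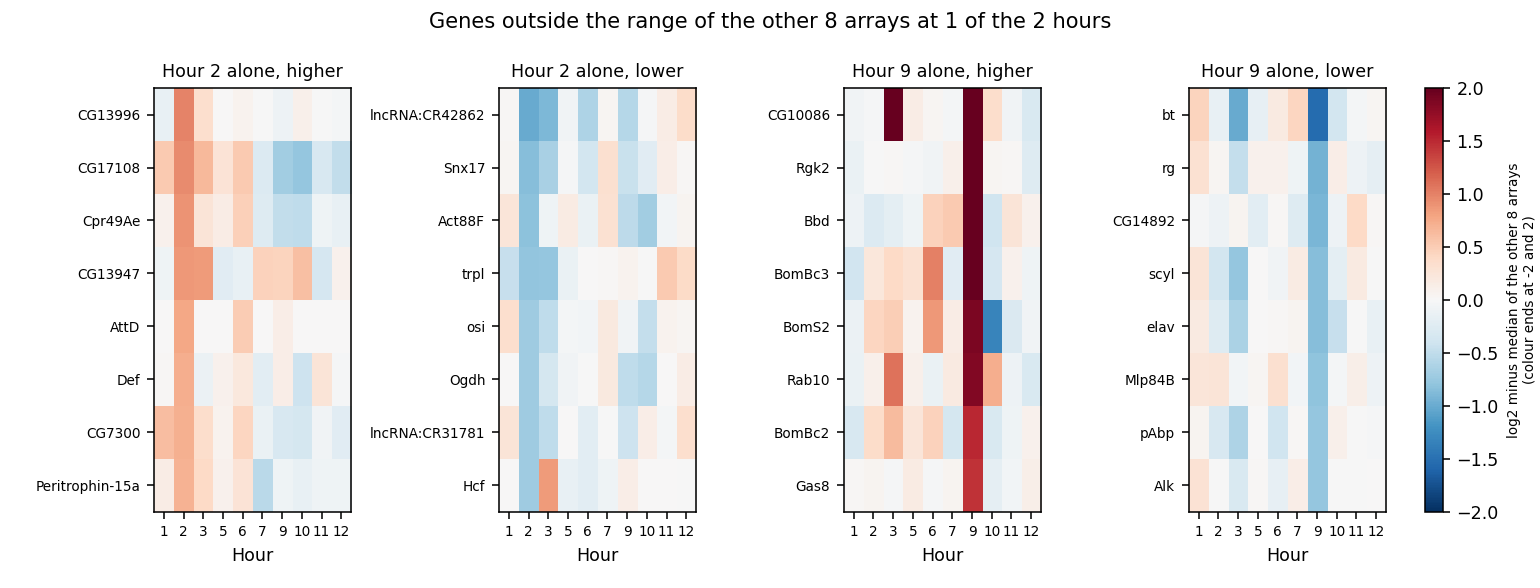
Colour gives the log2 value minus the median of the other 8 arrays, for up to 8 named genes in each of 4 sets (rows) at each hour (columns). The own hour of each set stands out as a column. In the sets lower at hour 2 and at hour 9, hour 3 is often pale to mid blue, Hcf is higher at hour 3, and CG10086 and Rab10 are also high there.

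More of the listed muscle and nerve genes lay below the other arrays than above them at hour 9. Of 17 muscle genes, 9 lay below all other arrays at hour 9 and 0 above, with a median of -0.38. At hour 2, 4 lay below and 4 above, with a median of -0.10. Of all probe sets, 8.99% lay below and 5.74% above at hour 9, and 10.2% below and 7.1% above at hour 2. The summed muscle intensity was 27766 units at hour 2 and 21174 at hour 9, against 23890 to 27860. TpnC4, a troponin C gene, had 40 and 60.2 units, against 63.1 to 91.8. Of 9 nerve genes, 7 lay below and 0 above at hour 9, and 1 below and 1 above at hour 2. Their sum was 1858 units at hour 2 and 1480 at hour 9, against 1715 to 2022. The synaptic vesicle gene nSyb had 476.6 and 313.8 units, against 335.3 to 519.2, and Gad1, of the transmitter GABA's synthesis, had 127 and 132.7, against 114 to 182.5.

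Metabolic lists were read in the same way. Of 12 lipid synthesis genes, 3 lay below all other arrays at hour 2, where 10.2% of all probe sets did, and 0 at hour 9, where 8.99% did, with medians of -0.18 and -0.03. FASN1, the fatty acid synthase gene, had 232.4 units at hour 2 and 404.6 at hour 9, against 230 to 523.1, so hour 2 was low but not outside. ACC, of the first step of fatty acid synthesis, had 327 and 412.4, against 326.9 to 488.6, and bgm, an acyl-CoA synthetase gene, had 202.4 and 182, against 171.5 to 238.8. Of 12 insulin and TOR genes, 2 lay below at each hour, with medians of -0.17 and -0.14. Pdk1, a kinase gene of the insulin pathway, had 274.7 and 277 units, against 242.6 to 401.2. ImpL2, whose product binds insulin-like peptides, had 931.3 and 851.4, against 792 to 1210, and Sesn, a TOR inhibitor gene, had 51.1 and 92.3, against 53.4 to 106.

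Oxidative phosphorylation had 4 of 61 genes above and 4 below the other arrays at hour 2, and 0 above and 9 below at hour 9. Over all probe sets the shares were 7.1% above and 10.2% below at hour 2, and 5.74% and 8.99% at hour 9. Its medians were -0.07 and -0.14. SdhC, a complex II subunit gene, had 458 and 523.9 units, against 528 to 755.7, and lay below at both hours. ND-51, of complex I, had 479.6 and 593 units, against 499.9 to 729.2, and COX5A, of complex IV, had 695.4 and 743.7, against 576.1 to 1057. The yolk protein genes, which are expressed in females, had medians of 0.53 and -0.37. Yp1 had 387.9 and 206 units, against 161.7 to 1332, Yp2 had 323.7 and 197.4, against 166 to 1135, and Yp3 had 679.5 and 344.6, against 270.6 to 1072. All 3 lay within the other arrays at both hours. The testis list had medians of 0.02 and 0, and 0 of 17 genes lay above or below all other arrays at either hour. Of the 17, 14 rose above the floor on at least 1 array. The summed testis intensity was 2849 and 2781 units, against 2680 to 5521, with the highest at hour 7. That array widened the range, so the count of 0 says little about a rise at hours 2 and 9.

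Genes with more than 1 probe set gave a limited check within the array. Of the 35 genes at hour 9 alone and higher, 5 had another probe set, and in 0 of these did it also lie above the other arrays at hour 9. That of Rsph3 lay under the floor on every array, as did a further probe set of CG32532. Of the 23 genes at hour 9 alone and lower, 7 had another, and in 5 at least 1 other also lay below, the exceptions being bt and rg. Among these 5, a further probe set of shep lay within the others, with 161.1 units at hour 9 against 156.4 to 208.5. A further one of CG32264 lay under the floor on every array, and the other one of Vha16-1 lay under it at hour 9. Of the 25 at hour 2 alone and lower, 6 had another and 0 lay below, but that of Snx17 was mostly under the floor. Of the 12 at hour 2 alone and higher, 2 had another and 0 lay above. For Eaf it lay below the others at hour 2, with 119.6 units against 128.3 to 150.4. DptB, Mtk, PGRP-SB1 and Srg2 had 1 probe set each.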

How the data were processed

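Total RNA of whole flies was extracted with Trizol and hybridised by a core facility, and the authors normalized the arrays with dChip through a set of probes of stable rank, per the labels. The intensities as deposited are linear, with array maxima between 8685 and 10406. Sources used here give neither the dChip version nor the expression index. Values of 14010 probe sets on 10 arrays were read, of which 0 were missing. After 44 control probe sets were set aside, 13966 were described. The platform annotation names 1 gene for 12443, several for 327 and none for 1196. Symbols were updated by Entrez identifier through the Release 6 gene table for 12394, and 49 were kept. Coordinates are left out because no build is named.

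Dim intensities below the 20th percentile (57.2) were set to it before log2, and 1989 probe sets lay at this floor on all arrays. Each hour was set against the median of the other 8 arrays. For the lists, each gene was read from its brightest probe set. The rule for names took up to 14 shared higher and 8 shared lower genes, up to 8 a direction for each hour alone, all antimicrobial and host defence peptide genes, and up to 3 genes of each other described list. The hours, members and lists were chosen with earlier results of these data known. The code for the calls was run on simulated data with planted changes and independent noise, which checks the code and not the calls made here. Other settings tried were median centring, quantile normalization, an offset of 32 without a floor, a lower floor (27, the 5th percentile), a filter at the 40th percentile, a 2-fold limit, the mean of the other arrays, 1 probe set per gene, and leaving out each array or hours 3 and 7. Python 3.11.15, pandas 2.3.3 and matplotlib 3.10.9 were used. The number of arrays limits the precision.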

Additional observations from a re-analysis of the deposited data

Results flagged for a closer look

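All 9 hybridisation control probe sets, which no comparison above uses, were lower at hours 2 and 9 than on any other array, with means of -0.74 and -0.64 on the log2 scale. apolpp was outside the other 8 arrays in opposite directions at the 2 hours, and hour 9 minus hour 2 was -1.92 on the log2 scale, a difference that was not tested.

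In 10 of 77 named probe sets, 1 of the other 8 arrays lay far from the remaining 7. Its gap to the nearest was over 0.526 of the range of the 8 log2 values. The probe sets were named partly through the range of these same arrays, so no rate by chance is set beside this count. At hour 3 this held for Hcf (623.8 units, against 297.1 to 348.1), CG10086 (916.5, against 141.8 to 224.6), scyl (126.9, against 189.6 to 260.6) and Gad1 (114, against 153 to 182.5). At hour 10 it held for Act88F (583.4, against 867 to 1174), ImpL2 (792, against 1049 to 1210) and COX5A (576.1, against 865.2 to 1057). The others were AttD at hour 6 (80.9, against 40.5 to 47.3), Anp at hour 7 (190.2, against 116.9 to 141.1) and CG14892 at hour 11 (184.2, against 116.5 to 143.8). For AttD the remaining 7 all lay under the floor, so its gap was set by that floor.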

How the results depend on the processing

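The 11 shared higher probe sets all remained with quantile normalization, with median centring, with the lower floor and without any 1 of the other 8 arrays, with at most 1 added. With an added offset 9 of them remained, without PGRP-SB1 and 143097_f_at, with the filter on dim probe sets 9, without 143096_f_at and 143097_f_at, and with the mean of the other arrays 10, without PGRP-SB1. With a 2-fold limit the 6 that remained were DptB, Mtk and 4 unnamed probe sets, and with 1 probe set per gene there were 4. The 2 shared lower ones were 0 with the offset or the 2-fold limit, 1 with the filter on dim probe sets or 1 probe set per gene, and 4 without hours 3 and 7. For hour 2 alone, the higher count of 13 was 23 with the lower floor and 0 with the 2-fold limit. The lower count of 32 was 19 with quantile normalization or with the mean of the other arrays, 13 with the offset and 1 with the 2-fold limit. For hour 9 alone, the 2-fold limit left 21 of 44 higher and 1 of 24 lower. The mean of the antimicrobial peptides at hour 9 was 0.95 with the filter, which leaves fewer of its genes. Without DptB and Mtk, a choice made after seeing the data, it was 0.27 at hour 2 and 0.057 at hour 9.

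Leaving out each array in turn, hours 2 and 9 included, the shared counts ranged from 11 to 62 (higher) and from 2 to 35 (lower), since without 1 of the pair the other hour alone is counted. Leaving out 1 of the other 8 gave 11 to 12 and 2 to 4. In the same runs, counts for hour 2 alone ranged from 7 to 17 and from 27 to 41, and for hour 9 alone from 41 to 52 and from 19 to 27. With hour 9 left out, hour 2 had 27 and 35, and with hour 2 left out, hour 9 had 62 and 31. These last counts hold whatever the other hour of the pair did. No paired analysis was possible because the replicate numbers are in accession order and pair nothing. With 1 array an hour, array and hour cannot be told apart, and dim probe sets near the floor have only bounds.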
